A study of Oryza sativa with 6 samples.

Results

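OSPIN10a, also named OsPIN3a and OsPIN3t, is a rice gene of the PIN family of auxin efflux carriers. It was selected on its log2 difference between 2 ageing temperatures in these same arrays, where it stood among the named transcripts highest at the harsher one, so that difference is described here without a test. The platform annotation assigns 2 of the 57194 probe sets kept to this gene alone. Its comparison set is the 4 other genes whose symbol or synonym begins with PIN and a number and which have a probe set of their own, namely OsPIN2, LOC4346116 (OsPIN4, also OsPIN5b or OsPIN5c), OsPIN5a (also OsPIN6) and OsPIN9 (also OsPIN5), with 1 probe set each. The name table lists 9 PIN genes, and the 4 without such a probe set were not analysed here.

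The samples were embryonic axes of mature seeds of Oryza sativa cultivar Nipponbare, a japonica rice, after controlled deterioration, in which seeds are aged quickly in warm and humid air. Of the 6 arrays, 3 came from seeds held at 45 °C, a step that according to the labels cost the seeds their capacity to germinate, and 3 from seeds held at 40 °C, where the labels speak of lost vigor. Both groups were brought to 85% relative humidity for 3 days at 25 °C, aged for 14 days at that humidity (15 days in a second field of the labels), and dried back at 32% relative humidity for 3 days at 25 °C. The labels also name control seeds kept at 25 °C, which were not analysed here, so 45 °C is set against 40 °C throughout. Separate seed lots are not mentioned for the replicates, and p-values therefore cover the spread between these samples alone, which may be technical.

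Auxin moves from cell to cell in a fixed direction because PIN proteins sit on 1 side of the plasma membrane and export the hormone there. Members with a long cytoplasmic loop work in this way, while short members such as PIN5 of Arabidopsis lie in the membrane of the endoplasmic reticulum and move auxin inside the cell. In embryos and seedlings this transport places the auxin maxima from which roots and leaves form. OSPIN10a belongs to the long members and in rice it has been linked to crown root growth and to drought tolerance. OsPIN2 is known from root gravitropism, and OsPIN9 belongs to a branch found in monocots.

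The brighter probe set of OSPIN10a was higher at 45 °C on every array. Its log2 values were 9.48, 9.72 and 9.21 at 45 °C and 8.18, 7.60 and 7.36 at 40 °C, for replicates 1 to 3 of each group. All 3 arrays at 45 °C lay above all 3 at 40 °C, and the lowest value at 45 °C exceeded the highest at 40 °C by 1.02 log2 units. The values spanned 0.51 log2 units within the 45 °C group and 0.82 within the 40 °C group, so the gap between the groups was wider than the range inside either. Means were 9.47 ± 0.26 at 45 °C and 7.71 ± 0.42 at 40 °C (SD, n = 3 each). The limma coefficient was 1.76 ± 0.25 (SE) on the log2 scale, or 3.38-fold higher at 45 °C. In descending order the arrays ran from replicates 2, 1 and 3 at 45 °C to replicates 1, 2 and 3 at 40 °C, and neighbours inside a group are read as unordered, since replicates give no error for single arrays.

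The other probe set of the same gene gave a different picture. It read 2.11, 1.58 and 1.98 at 45 °C and 1.75, 2.38 and 1.54 at 40 °C, below the expression minimum of 4 on all 6 arrays. The groups overlapped, with means of 1.89 ± 0.28 at 45 °C and 1.89 ± 0.44 at 40 °C (SD, n = 3 each). The letter x in its identifier marks a set in which some probes may also match other transcripts. No source used here gives the sequence of the probes or where on the transcript they lie. The 3.38-fold difference therefore rests on 1 of the 2 probe sets of OSPIN10a, and the dim set gives neither a level nor a change of the gene.

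**Figure D1:**
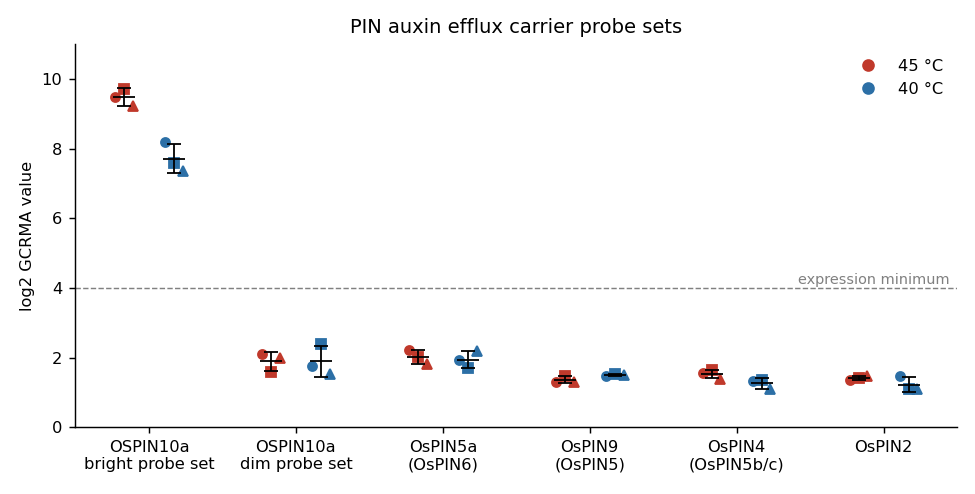
Log2 GCRMA value (y axis) of each PIN probe set (x axis) on the 3 arrays at 45 °C (red, left) and the 3 at 40 °C (blue, right). Circles, squares and triangles are replicates 1, 2 and 3, black bars give the mean ± SD, and the dashed line is the expression minimum of 4. The bright probe set of OSPIN10a spans 9.21 to 9.72 at 45 °C and 7.36 to 8.18 at 40 °C, while the other 5 probe sets stay under the minimum on every array.

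The 4 other PIN genes were all under the expression minimum on every array, so none entered the test and no level or change of theirs can be read. OsPIN5a lay at log2 values from 1.69 to 2.22 and OsPIN9 from 1.29 to 1.52. OsPIN2 lay at 1.09 to 1.48 and LOC4346116 at 1.09 to 1.63. Without the minimum, limma gave log2 changes of 0.07 ± 0.18 for OsPIN5a, -0.14 ± 0.11 for OsPIN9, 0.20 ± 0.13 for OsPIN2 and 0.27 ± 0.13 for LOC4346116 (SE). Their Benjamini-Hochberg adjusted p over all probe sets ran from 0.307 to 0.84, and their unadjusted p from 0.064 to 0.696. The 45 °C and 40 °C arrays did not overlap in 1 of these 4 genes, LOC4346116, with 1.57, 1.63 and 1.40 at 45 °C and 1.34, 1.36 and 1.09 at 40 °C. Among all 34982 probe sets under the minimum, 21.2% were higher at 45 °C without overlap and 3.3% lower, and their median change was 0.17, so 1 of 4 in this range is near the background. The bright probe set of OSPIN10a was thus the 1 PIN probe set, of 6, that could be compared between temperatures.

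Few tested probe sets differed as much as OSPIN10a in the same direction. Of the 22212 probe sets with a mean of at least 4, the limma test called 0 at an adjusted p under 0.05 (0%), and 4254 (19.2%) had an unadjusted p under 0.05. Groups did not overlap in 10.8% of tested probe sets in the higher direction and in 17.8% in the lower direction. OSPIN10a was 1 of 9 tested probe sets with a log2 difference of at least its own toward 45 °C, against 98 with a difference as large toward 40 °C. It was 1 of 7 with a gap between the groups at least as wide in its direction. Since the gene was picked for this contrast, these counts describe its place and support nothing.

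In the deposited scaling the median log2 change of all tested probe sets was -0.17, so OSPIN10a stood 1.92 above it. The sign of this median depended on the scaling, being 0.09 with median centring, 0.01 when quantiles were normalized again and -0.02 with cyclic loess. It was 0.08 over all probe sets without a filter. Among the 2438 probe sets with a mean from 8 to under 9, the range that holds OSPIN10a, the median change was -0.21 and the 1st and 99th percentiles were -1.05 and 0.67. With median centring the coefficient of OSPIN10a was 2.01, with quantile normalization 1.96 and with cyclic loess 1.98. It then stood 1.92, 1.95 and 2.003 above the median of all tested probe sets.

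**Figure D2:**
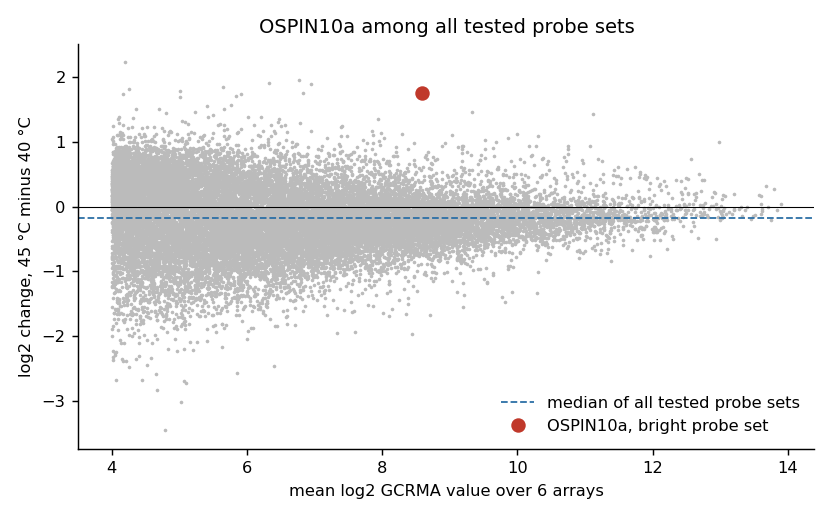
Log2 change, 45 °C minus 40 °C (y axis), against the mean log2 GCRMA value over the 6 arrays (x axis) for the 22212 tested probe sets (grey). The bright probe set of OSPIN10a (red) lies at a change of 1.76 and a mean of 8.59, and the blue dashed line marks the median of all, -0.17.

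Transcripts of the control spots moved in nearly the same order over the arrays as OSPIN10a. BioB, BioC and BioD are bacterial transcripts that on Affymetrix arrays are normally added to the hybridisation mix in fixed amounts, though no label says so for these samples. The mean of the 3 BioB probe sets was 8.62, 8.74 and 8.48 at 45 °C and 7.94, 6.65 and 6.81 at 40 °C. That of the BioC pair was 11.85, 11.86 and 11.75 at 45 °C and 11.55, 10.26 and 10.61 at 40 °C. Replicate 1 at 40 °C was thus the highest of its group for BioB and BioC as for OSPIN10a, and replicates 2 and 3 at 40 °C were the lowest. The groups did not overlap in 5 of the 7 BioB, BioC and BioD probe sets, all higher at 45 °C. The BioD pair overlapped, with 13.25 to 13.41 at 45 °C and 12.53 to 13.34 at 40 °C. The mean of the 7 probe sets was also used as a covariate, an alternative chosen after seeing the data. The OSPIN10a coefficient was 1.04 ± 0.35 (SE) with it, against 1.76 without it. That mean did not overlap between the groups, with 10.78 to 10.96 at 45 °C and 9.36 to 10.51 at 40 °C. The fit therefore cannot tell the controls apart from temperature.

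**Figure D3:**
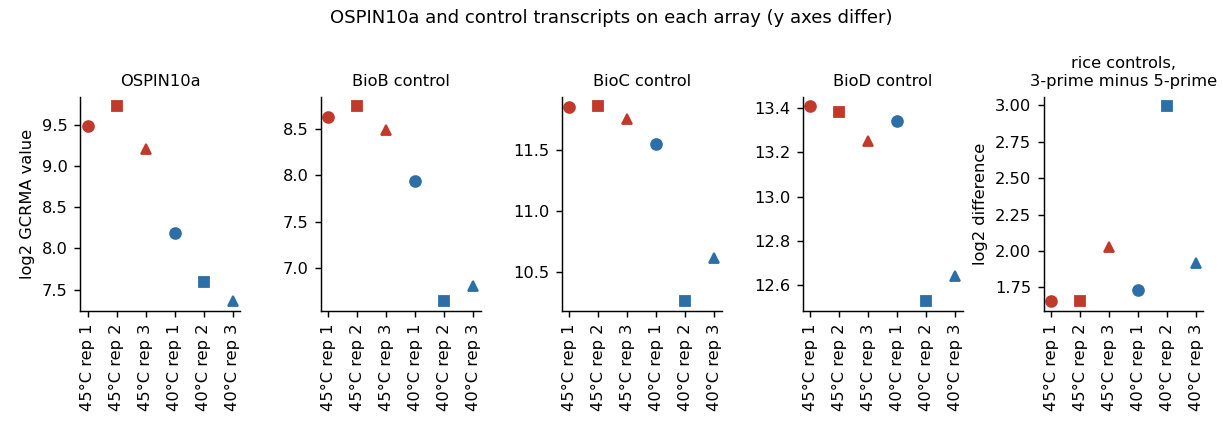
Log2 GCRMA value of OSPIN10a, of the BioB, BioC and BioD control probe sets (means over each transcript's sets) and the mean 3-prime minus 5-prime log2 difference of 5 rice control transcripts (y axes, which differ), for each array (x axis; red 45 °C, blue 40 °C). For OSPIN10a, BioB and BioC each red point lies above each blue one, and replicate 2 at 40 °C has the highest 3-prime minus 5-prime difference, 2.99.

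Among the arrays, replicate 2 at 40 °C was the least like its group. It correlated with the others of its group at 0.927 at the lowest, where replicates 1 and 3 reached 0.981, while pairs within 45 °C lay at 0.939 to 0.946 and pairs between the groups at 0.895 to 0.948. The 3-prime minus 5-prime difference of 5 rice control transcripts, a reading of RNA integrity, was 1.66 to 2.03 at 45 °C and 1.74, 2.99 and 1.92 at 40 °C. OSPIN10a had a coefficient of 1.70 ± 0.28 (SE) without that array and of 1.62 ± 0.26 (SE) with the difference as a covariate. It was 1.58 to 1.99 when each array was left out in turn. Extracted RNA was 42, 56 and 48 µg at 45 °C and 55, 53 and 68 µg at 40 °C. The means were 48.7 µg at 45 °C and 58.7 µg at 40 °C, the groups overlapped, and the part of this in the OSPIN10a difference was not tested.

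Markers of the labelled tissue were present in both groups. Of 16 probe sets in the embryo list 10 reached the minimum, among them EMP1, RAB21 and VP1, known from maturing and dry embryos, and the shoot meristem gene OSH1. Their summed level, as log2 of the added linear values, was 15.77 to 15.83 at 45 °C and 15.81 to 15.91 at 40 °C. The root meristem genes QHB (3.38 on average) and SCR1 (1.37) were under the minimum. The list's symbol match also took in 4 probe sets of the hemoglobin genes GLB1A and GLB1B, all under the minimum. The tested probe set of LOC4337720 (GLB1, also GLB), with a change of -0.55, was matched by both the embryo and the endosperm list. It therefore enters the counts, sums and medians of both. Endosperm transcripts were also present, with 23 of 34 probe sets over the minimum and a summed level of 13.03 to 13.84 at 45 °C and 13.10 to 13.65 at 40 °C. Aleurone markers (5 of 7 over the minimum) summed to 9.93 to 10.55 at 45 °C and 10.01 to 10.35 at 40 °C, and green tissue markers (2 of 10) to 6.54 to 7.43 and 7.03 to 7.11 in the same order of groups. The summed levels of all 4 lists overlapped between the groups, but the median over the tested embryo probe sets did not. It was 11.56, 11.49 and 11.54 at 45 °C and 11.80, 11.93 and 11.82 at 40 °C. The median of all tested probe sets was separated too, with 6.23 to 6.25 at 45 °C and 6.45 to 6.55 at 40 °C. The median change of the embryo probe sets was -0.10, against -0.17 over all tested. After median centring these were 0.15 and 0.09. Of the 10 tested embryo probe sets 2 were lower at 45 °C without overlap, beside 17.8% over all tested. They were those of RAB16D (-0.52) and RAB16C (-0.13), which encode dehydrins. After median centring the change of RAB16C was 0.13. RAB21 (0.05 and -0.03) and RAB16B (-0.05) of the same list overlapped. Of the 23 tested endosperm probe sets 16 had changes above 0, with a median of 0.15, against -0.17 over all tested. After median centring these medians were 0.41 and 0.09, and after cyclic loess 0.32 and -0.02. The share of all tested probe sets above 0 was not counted. Groups did not overlap in 1 of the 23, higher at 45 °C, beside 10.8% in that direction over all tested. This was a probe set of waxy (0.37), the starch synthase gene of the endosperm, with a gap of 0.006 log2 units. The other tested probe set of waxy overlapped, with a change of 0.18. The part of these differences in that of OSPIN10a was not tested. In bulk tissue fewer cells of a type and less RNA per cell cannot be told apart, so the OSPIN10a values are levels per array and not per cell.

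The other steps of the auxin pathway were read from lists of gene symbols. No AUX1 influx carrier, PILS carrier or TIR1 or AFB receptor was found by its name among the probe sets with 1 gene. The ABCB transporter mdr17, the small auxin-up RNA gene SAUR39 and the 5 probe sets of regulators of PIN proteins, including the kinase gene OsPID, known in its Arabidopsis form for phosphorylating PIN proteins, were under the minimum. The lists left 46 tested probe sets of 39 genes, for auxin synthesis, conjugation, repression and response. None passed limma at an adjusted p under 0.05, and at an unadjusted p under 0.05 there were 0 higher and 5 lower at 45 °C, where the shares over all tested probe sets were 5.37% and 13.8%. Groups did not overlap in 2 of the 46 in the higher direction and in 7 in the lower, beside 10.8% and 17.8% over all tested. The median change over the 46 was -0.21, against -0.17 over all tested. After median centring these medians were 0.05 and 0.09, and after cyclic loess both were -0.02.

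Among repressors of the Aux/IAA family, which hold auxin response factors silent until auxin leads to their breakdown, 12 of 17 tested probe sets had changes below 0, with a median of -0.33. This median lay 0.16 below that of all tested probe sets, by the same amount after median centring (-0.07 against 0.09) and by less after cyclic loess (-0.10 against -0.02). How many of all tested probe sets changed below 0 was not counted, here or for the lists that follow. Their median of -0.17 was itself below 0, so such counts are not read as a result about a list. IAA24 was the clearest, with 5.44, 5.69 and 5.82 at 45 °C and 6.39, 6.73 and 6.73 at 40 °C. The groups did not overlap, and its log2 change was -0.97 ± 0.25 (SE) with a limma adjusted p of 0.176. IAA30 had a change of -1.41 ± 0.47 (SE; adjusted p = 0.205), although its 45 °C mean of 3.62 was under the minimum and the groups overlapped. Toward 45 °C, IAA20 (also IAA4) had a change of 0.43 in 1 probe set, 0.38 in another and -0.59 in the remaining one, and IAA9 one of 0.24.

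Auxin response factors, the transcription factors that bind auxin-responsive promoters, had a median change of -0.18 over 18 tested probe sets, 14 of them below 0. This median was 0.07 after median centring, against 0.09 over all tested, and 0.03 after cyclic loess, against -0.02. ARF24 had a change of -0.74 ± 0.23 (SE; adjusted p = 0.194) and ARF16 of -0.77 ± 0.32 (SE; adjusted p = 0.249), both without overlap. ARF2 of locus LOC4325895 had a change of 0.24 in 1 probe set, without overlap, and of 0.02 in the other. ARF12 had a change of 0.36, also without overlap. The gap between the groups was only 0.016 log2 units for this ARF2 probe set and 0.001 for ARF12. Whether all genes found under the symbol ARF are auxin response factors was not checked, since ADP-ribosylation factors share it.

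Genes of auxin conjugation and turnover gave no call either. Of 9 tested probe sets 6 had changes below 0, with a median of -0.20, against -0.17 over all tested. After median centring these medians were 0.06 and 0.09, and after cyclic loess -0.16 and -0.02. ILL5, named for a family of hydrolases that free auxin from amino acid conjugates, had a change of -0.69 ± 0.26 (SE; adjusted p = 0.233) in its brighter probe set and 0.36 in the other. GH3.5, of the family that couples auxin to amino acids, had -0.43, and DAO, an auxin oxidase gene, -0.14. ILL1 (0.48) and ILL2 (0.26) were on the positive side. For synthesis, the anthranilate synthase genes ASA2 and ASA1, which feed tryptophan to the pathway, had changes of -0.48 and 0.00, while FIB and OsYUCCA1, nearer to auxin itself, were under the minimum. The change of ASA1 was above 0 after each scaling, at 0.20 to 0.26.

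**Figure D4:**
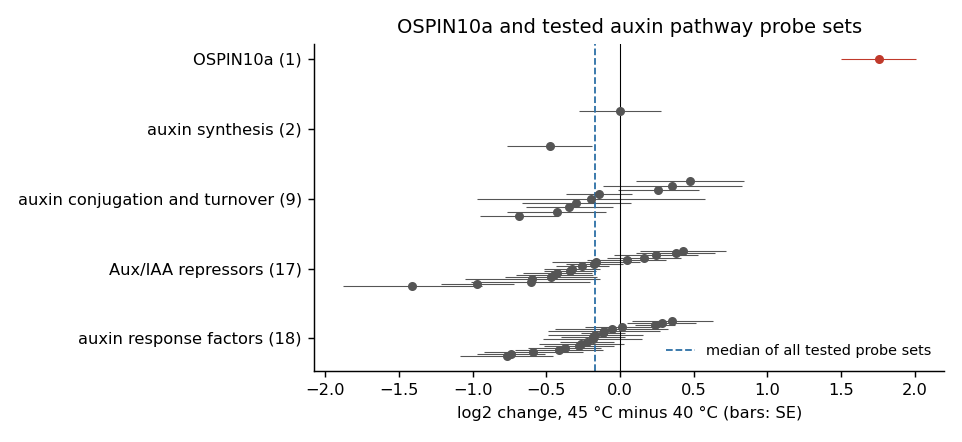
Log2 change, 45 °C minus 40 °C, with its SE (x axis) for OSPIN10a (red) and each tested probe set of 4 auxin lists (grey, rows, number of probe sets in brackets). OSPIN10a lies at 1.76, outside the range of the lists, which runs from -1.41 to 0.48, and the blue dashed line marks the median of all tested probe sets, -0.17.

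Likeness to OSPIN10a over the arrays was measured as Pearson's r over the 6 arrays among tested probe sets of 1687 genes with a name. The 2 groups carry most of such a correlation, so it is a description without a p. In all, 179 of the other tested probe sets reached an r of 0.95, and 183 reached -0.95. The 5 named genes most alike were the beta-tubulin gene RTUB-2 (r = 0.96), the homeodomain gene HOX7 (0.957), SPL4 (0.948), the homeodomain gene Hox19 (0.936) and LHCP, a light-harvesting protein gene (0.931). LHCP passed the minimum through the 45 °C arrays, with means of 4.44 at 45 °C and 3.88 at 40 °C. RTUB-2 read 6.67, 6.27 and 6.39 at 45 °C and 5.64, 5.14 and 5.09 at 40 °C, a log2 change of 1.15. The 2 other tested probe sets of RTUB-2 had changes of -1.22 and -0.16, and that of SPL4 one of -0.35, against 0.57 in the probe set alike to OSPIN10a. The other tested probe set of Hox19 had a change of 0.79, beside 0.62.

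The genes most opposite to OSPIN10a had correlations of larger size than those most alike. The kinase gene OsSAPK1, of the family that acts in abscisic acid and osmotic stress signalling, had r = -0.998, with 10.47, 10.44 and 10.58 at 45 °C and 10.80, 10.99 and 11.05 at 40 °C. Every array at 45 °C lay below every array at 40 °C, and within each group the array highest in OSPIN10a was the lowest in OsSAPK1. XBOS35 (r = -0.989), the kinase gene SNRK1B (-0.988), the small GTPase gene OsRac3 (-0.979) and the thioredoxin gene OsTrx18 (-0.978) followed, with log2 changes of -0.66, -0.75, -0.85 and -0.64. For SNRK1B, the 2 other tested probe sets had changes of -0.10 and 0.06. The other tested probe set had a change of -0.69 for XBOS35 and of -0.13 for OsTrx18. After median centring, OsSAPK1 had a change of -0.20, against -0.45 in the deposited scaling. Those of XBOS35, SNRK1B, OsRac3 and OsTrx18 were then -0.41, -0.50, -0.60 and -0.38. IAA24, named above for its small p in this contrast, was also lower at 45 °C without overlap, as were 17.8% of all tested probe sets.

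The difference of OSPIN10a kept its direction in all settings applied to the bright probe set. It stayed within 1 SD between replicates (0.35 log2 units, pooled over the groups) of the main value in 15 of 17 alternatives. The exceptions were the hybridisation control covariate and the dim probe set. The 15 include the other filters, the fit without an intensity trend and the replicate block, which by construction leave the coefficient at 1.76. As the groups did not overlap, fits without 1 array or with array weights could not turn the direction either. The gene was chosen for this difference, so the kept direction describes the values and supports nothing.

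**Figure D5:**
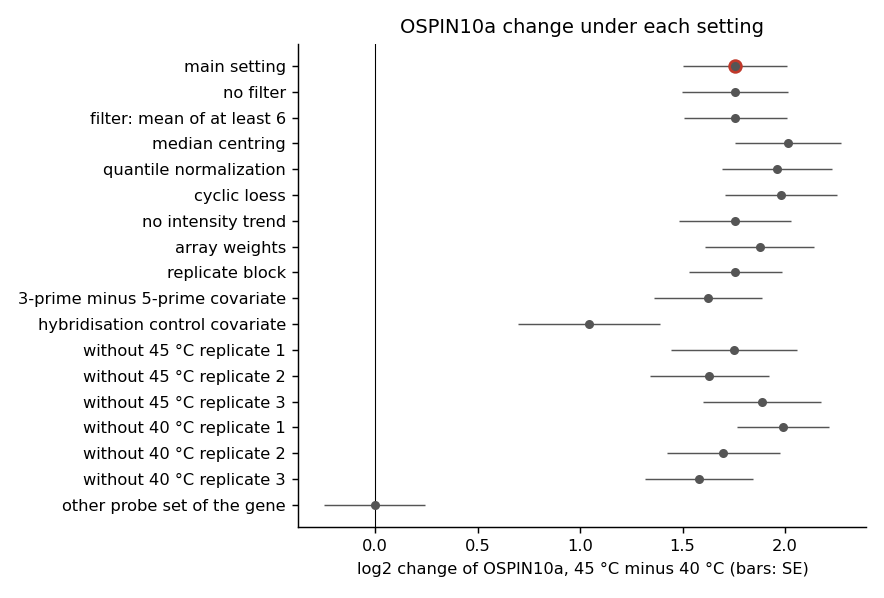
Log2 change of OSPIN10a, 45 °C minus 40 °C, with its SE (x axis) under each setting (rows), the main setting in red. Values of the bright probe set run from 1.04 with the hybridisation control covariate to 2.01 after median centring, and the other probe set of the gene lies at 0.00.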

How the data were processed

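The authors deposited a table of log2 values from the Affymetrix Rice Genome Array, with a row for each probe set. Per the submitters' processing notes they used GCRMA (version not given in the sources used here), a method that corrects background, normalizes quantiles between arrays and summarises the probes. Values ran from 0.563 to 14.6. Per the labels' protocols 50 ng of total RNA was amplified and labelled. Arrays give no depth, so their number limits the precision.

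Of 57381 probe sets, 123 controls and 64 reporter gene sets were left out of the fits. Of the 57194 kept, the platform annotation gives 22436 a single gene, 95 several and 34663 none. The name table of assembly ASM3414082v1 held all 17905 genes and served for names and gene order alone. No coordinates are given, since no source used here names the build behind the array, and no sequences were at hand.

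Probe sets with a mean of at least 4 were fitted with limma 3.58.1 in R 4.3.3 (lmFit, eBayes with an intensity trend), 45 °C minus 40 °C, two-sided, adjusted by Benjamini-Hochberg over all. The fit was tested on simulated data with independent noise for each probe set and array. These data held no shift of whole arrays, so the test does not cover the array differences described above. At most 0.873% of values were identical between 2 arrays. Deviations of equally numbered replicates correlated at 0.03, -0.14 and -0.04, so no pairing by number was seen in them. Such a correlation cannot exclude a pairing that touches few transcripts.

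The gene and the lists were chosen with earlier results of these data known. Named were all PIN genes, up to 2 genes per auxin list and direction by smallest p, and the 5 genes most and least like OSPIN10a with a symbol or synonym other than a locus or clone number. IAA20, ILL5 and ARF2 have further probe sets, given beside these. The letter x, explained above for the dim OSPIN10a set, also stands in other identifiers. Among them are the sets named for HOX7, SPL4, Hox19, XBOS35, SNRK1B and ILL2, the IAA20 set with a change of 0.43 and the tested waxy sets. DAO, FIB, OsYUCCA1, mdr17, SAUR39, OsPID and the markers named singly were chosen after their values were seen. Alternatives were other filters, scalings, weights, covariates and left-out arrays.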

Additional observations from a re-analysis of the deposited data

Results flagged for a closer look

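Control spots outside the main measurement differed between the groups. The BioB hybridisation control was 8.61 ± 0.13 at 45 °C and 7.13 ± 0.70 at 40 °C (SD, n = 3 each), a difference of 1.48 log2 units. The BioC control was 11.82 ± 0.06 at 45 °C and 10.81 ± 0.67 at 40 °C (SD, n = 3 each), a difference of 1.01. The cre control, close to the top of the scale, was 14.21 ± 0.06 at 45 °C and 14.09 ± 0.16 at 40 °C (SD, n = 3 each). The mean of the 7 BioB, BioC and BioD probe sets did not overlap between the groups. A fit with it as a covariate therefore cannot tell the controls apart from temperature. The part of these differences in the OSPIN10a difference was not tested.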

How the results depend on the processing

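The log2 change of OSPIN10a was 1.58 to 1.99 when each array was left out in turn. It was 1.04 with the hybridisation control covariate, which was chosen after seeing the data, and 0.00 (-0.00063) in the other probe set of the gene; the cause was not tested. With the replicate number as a block it was 1.76 ± 0.23 (SE), and the block changed no call, with 0 of 22212 probe sets past the threshold. Without a filter, 1 of the 4 other PIN probe sets did not overlap, since only then were they counted. In no setting did an auxin list probe set pass the adjusted threshold, nor did the 4 other PIN genes in the fit without a filter, the only one they entered; OSPIN10a was given no test. Over all tested probe sets 192 passed with array weights (14 higher, 178 lower), 44 with the 3-prime minus 5-prime covariate (0 higher, 44 lower) and 67 without replicate 2 at 40 °C (3 higher, 64 lower). Named auxin genes kept their direction in 210 of 220 alternatives. These include the other filters, the fit without an intensity trend and the replicate block, which by construction cannot change a direction. The genes were named for the smallest p in these same arrays. Where their groups do not overlap, fits without 1 array or with array weights cannot turn the direction either. ASA1 turned positive in 9 (0.255 after median centring, 0.248 after quantile normalization, 0.196 after cyclic loess, 0.068 with array weights, 0.025 with the 3-prime minus 5-prime covariate, 0.019 with the hybridisation control covariate, and 3 of the 6 fits without 1 array, which ran from -0.255 to 0.206) and ILL5 in 1 (0.032 with the hybridisation control covariate). With 3 arrays a group, these data limit what can be called.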

Other observations

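The genes beside OSPIN10a in the order of assembly ASM3414082v1 were looked up after its values had been seen. LOC4326564, the next gene on the lower-numbered side, read 7.71, 7.64 and 8.26 at 45 °C and 7.92, 8.12 and 8.23 at 40 °C, a log2 change of -0.22 ± 0.22 (SE). On the higher-numbered side the homeodomain gene HOX3 had no tested probe set. The kinase gene MPK16, 2 genes away, had a change of -0.35 ± 0.28 (SE), and LOC4326568, 3 genes away, one of 0.52 ± 0.26 (SE). The groups overlapped in each of these genes.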
